A study of Mus musculus with 2 samples.

Results

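The HOX genes encode the homeodomain transcription factors of the HOXA, HOXB, HOXC and HOXD clusters. Members were all genes on the array whose symbol was Hox followed by a cluster letter and a paralog number, which gave 39 genes of 29924 and 45 probes of 39429. Each gene was represented by the brightest of its probes over both arrays. Wild-type NMRI mouse ureters of newborn pups (P0) were explanted and kept in culture for 18 h, in medium with 5 µM IWP-2 or with the solvent alone (control). IWP-2 inhibits Porcupine, the acyltransferase that WNT ligands need for secretion. Each of the 4 RNA samples was a pool of 5 or 6 ureters, which hold urothelium, lamina propria and smooth muscle together with their nerves and vessels. Replicate 1 set a female IWP-2 pool (red) against a female control pool (green) on a 2-colour array, and replicate 2 set male pools against each other with the dyes swapped. Sex and dye orientation changed together between the arrays and cannot be told apart. In such mixed tissue, fewer cells of a type and less RNA per cell cannot be told apart either.

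HOX genes are ordered along each cluster from paralog group 1 at the 3′ end to group 13 at the 5′ end. In the embryo the genes are switched on in this order, so that more posterior tissue carries products of more 5′ genes. WNT signals are among the inputs that start HOX expression in the early embryo, together with retinoic acid, FGF and the caudal factors. In the urinary tract the genes of paralog group 11 are required for kidney formation, Hoxb7 is expressed along the Wolffian duct and the ureteric bud, and Hoxa13 and Hoxd13 act at the caudal end of the urogenital tract. Once set, HOX expression is kept by Trithorax and Polycomb chromatin complexes, and HOX proteins bind DNA with PBX and MEIS cofactors.

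The arrays carried the pattern of markers of ureter tissue. All 11 urothelial, all 7 smooth muscle and all 5 lamina propria or fibroblast markers were well above background in all 4 channels. Of 8 kidney tubule and podocyte markers, 5, among them Umod, stood at the floor of the signal in every channel. Of the 8 only Aqp1 was above background in all 4. The other 2 read higher in replicate 2. Lrp2 read 22.8 in control and 15 in IWP-2 of replicate 1, and 61.4 and 59.4 in replicate 2. Slc34a1 was at the floor in replicate 1 and read 23.1 in control and 29.5 in IWP-2 of replicate 2. Axin2, a direct target of canonical WNT signaling, fell by 1.91 on the log2 scale with IWP-2 (SE 0.0994, n = 2 arrays, limma adjusted p = 0.000824). Kdm6a, an X-linked gene that escapes X inactivation, had a higher signal on the array of female pools, by 0.78 log2 units in control and 0.69 in IWP-2.

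Most of the HOX complement was above background by the scanner's flag in the ureter cultures, some of it at the floor of the signal. In 34 of the 39 genes (87.2%) the scanner marked more than 50% of the probe's spots as well above background in each of the 4 channels, against 65.1% of all genes on the array. A signal above 100 on average in control or in IWP-2, the filter for the test, was reached by 25. All 11 HOXA genes, all 9 HOXD genes, 8 of 10 HOXB genes and 6 of 9 HOXC genes were above background in all 4 channels. The genes with a testable signal numbered 7 in HOXA, 8 in HOXB, 3 in HOXC and 7 in HOXD. By position, 7 of 8 genes of paralog groups 1 to 3, 14 of 15 of groups 4 to 8 and 13 of 16 of groups 9 to 13 were above background in all 4 channels.

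**Figure D1:**
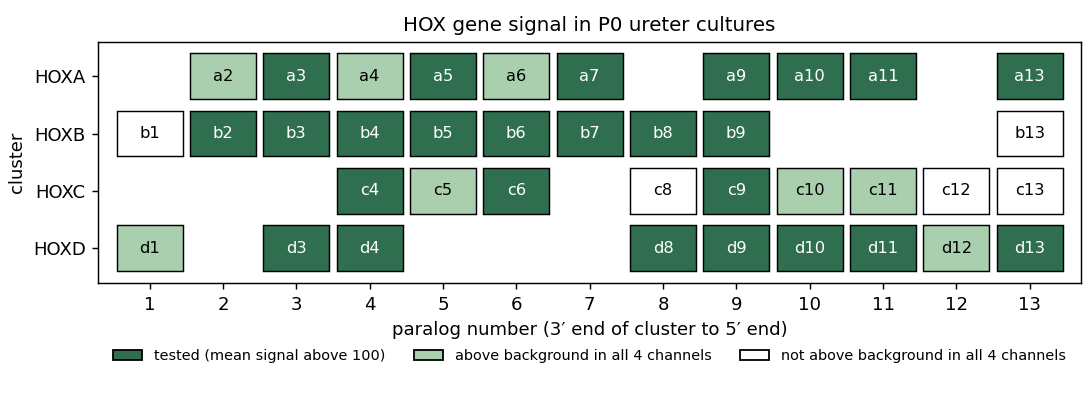
HOX genes of the array by cluster (vertical axis) and paralog number (horizontal axis). Dark boxes are the 25 tested genes, pale boxes genes above background in all 4 channels that did not reach a signal of 100, and white boxes the 5 genes that were not above background in all 4 channels; HOXB is filled from Hoxb2 to Hoxb9, and 3 of the 5 white boxes lie in HOXC.

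The 5 genes that were not above background in all 4 channels were Hoxb1, Hoxb13, Hoxc8, Hoxc12 and Hoxc13. Hoxb1 marks a single hindbrain segment in the embryo, Hoxb13 is known from the prostate and tail, and Hoxc13 from hair follicles and nails. Their signals lay at or below the floor of 15 in every channel. A further 9 genes were above background but were not tested. Of these, Hoxc5, Hoxc11, Hoxd1 and Hoxd12 lay at the floor, and Hoxa4 and Hoxa6 lay between 15 and 26.7. Hoxa2, a hindbrain and branchial arch gene, read 65.8 in control and 63.7 in IWP-2 of replicate 1, and 65.2 and 71.0 in replicate 2. Hoxc10, which patterns lumbar vertebrae and hindlimb motor neurons, read 89.5 in control and 76.2 in IWP-2 of replicate 1, and 91.8 and 77.7 in replicate 2. Both Hoxc10 readings with IWP-2 lay below both control readings, as did those of 17.0% of all genes tested. The log2 ratios of Hoxc10 were -0.23 and -0.24, at a signal under the limit for the test.

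The signals are given per probe as a description, since the signal of a probe depends on how well it binds and gives no order of transcript abundance between genes. The brightest HOXA probe was that of Hoxa11, a gene needed with its paralogs for metanephric kidney induction. It read 2139 in control and 1884 in IWP-2 of replicate 1, and 1724 and 1786 in replicate 2. The brightest HOXB probe was that of Hoxb2, a hindbrain patterning gene, with 1994 in control and 2119 in IWP-2 of replicate 1, and 2250 and 2310 in replicate 2. In HOXC the brightest was Hoxc6, a gene of the thoracic region, with 200.1 and 171.6 in replicate 1 and 222.3 and 201.2 in replicate 2. In HOXD it was Hoxd8, with 2993 in control and 2912 in IWP-2 of replicate 1, and 2885 and 2873 in replicate 2. The 4 readings of Hoxd8 lay between 2873 and 2993, whereas the control readings of Hoxa11 and of Hoxb2 differed more between the arrays than IWP-2 and control did on either array. Tested HOXA probes ranged in control from 155 to 2139, HOXB from 228.1 to 2250, HOXC from 150.3 to 222.3 and HOXD from 97.1 to 2993. The probe of Hoxb7, whose regulatory region is widely used to drive transgenes in the ureteric epithelium, read 1220 and 1471 in the control pools.

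**Figure D2:**
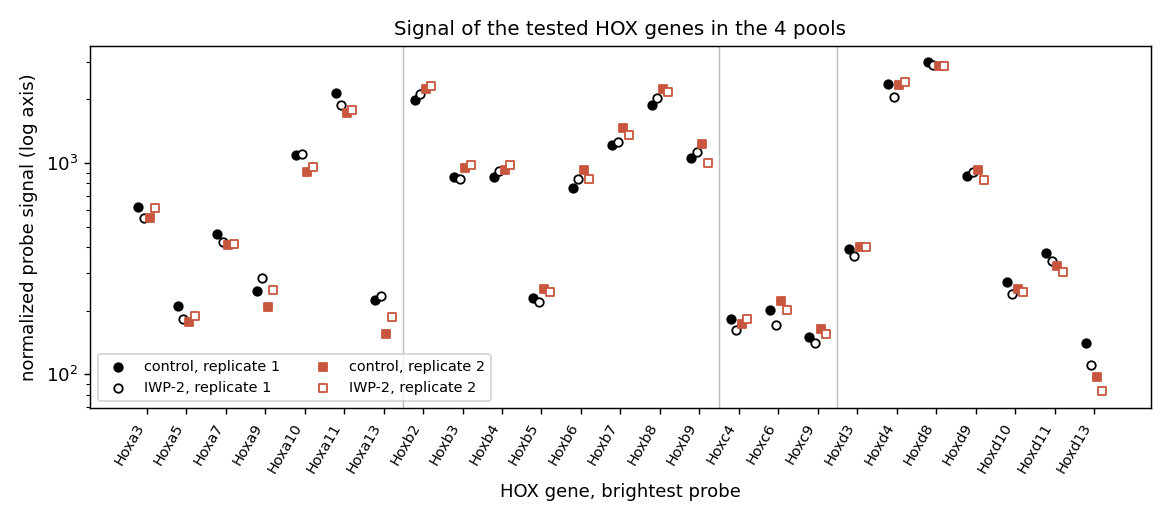
Normalized signal (log axis) of the brightest probe of each tested HOX gene in the 4 pools, 1 point per pool and grouped by cluster from HOXA to HOXD; filled symbols are control and open symbols IWP-2, circles replicate 1 and squares replicate 2. The spread of the 4 points differs between genes, from 2873 to 2993 for Hoxd8 and from 82.7 to 140.5 for Hoxd13.

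IWP-2 was compared with control to find transcripts of the postnatal ureter that depend on WNT secretion. No HOX gene passed the test: 0 of 25 had a limma adjusted p under 0.05, where 179 of 14336 genes (1.25%) did, 0.886% lower and 0.363% higher, and the lowest adjusted p among them was 0.136. At an unadjusted p under 0.05, 3 of the 25 (12%) passed, 1 higher and 2 lower, against 12.9% of all genes tested, 6.27% higher and 6.64% lower. None of the 24 HOX genes with control signal above 100 on both arrays changed by 1.5-fold or more in the same direction on both, a filter that 0.363% of genes passed as lower and 0.0783% as higher. At 1.2-fold in the same direction on both arrays, 0 of the 25 HOX genes passed as well. Of the 14336 genes tested, 262 passed this limit as lower and 168 as higher. The 95% intervals of all 25 ratios lay inside 1.5-fold in either direction, as did those of 96.7% of all genes. Those of 16 of the 25 lay inside 1.2-fold, as did those of 9333 of the 14336 genes tested. The lowest bound, a 1.38-fold decrease, belonged to Hoxd13 and the highest, a 1.32-fold increase, to Hoxa9. The median log2 ratio of the 25 genes was -0.05 in replicate 1 and 0.0035 in replicate 2, beside -0.0042 and -0.0049 for all genes tested. With 2 arrays the number of arrays limits the precision, and the SE of a HOX gene ranged from 0.0664 to 0.102 log2 units. These SEs and the 95% intervals were moderated by limma with the spread of all genes tested. Each gene gave 1 residual degree of freedom of its own, of a total of 6.49.

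**Figure D3:**
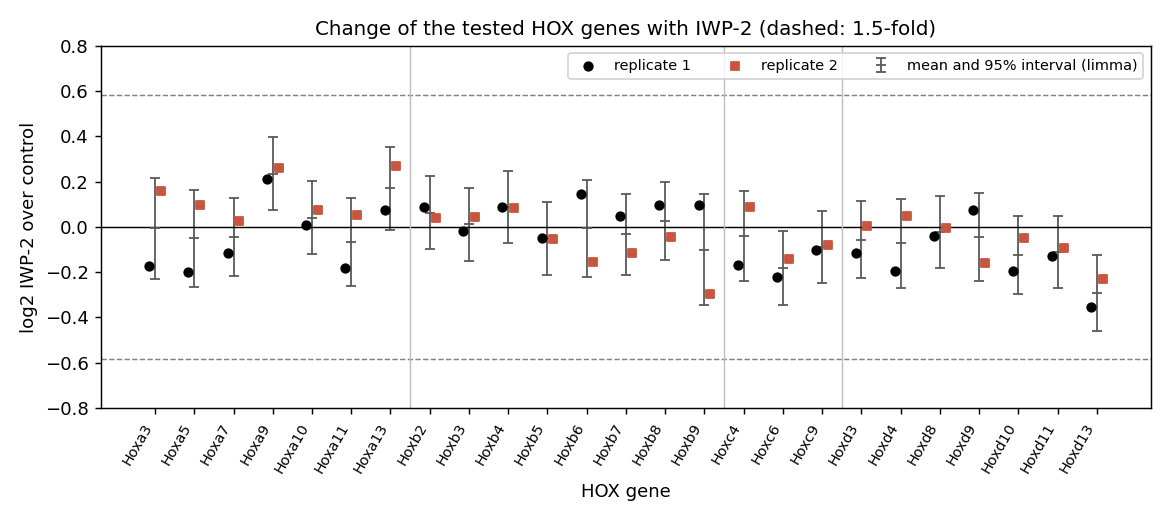
Log2 ratio of IWP-2 over control for the 25 tested HOX genes, with replicate 1 as circles, replicate 2 as squares, and the mean with its 95% limma interval as a bar (n = 2 arrays); dashed lines mark 1.5-fold. Every interval lies between the dashed lines, Hoxa9 is the highest gene at a mean of 0.24 and Hoxd13 the lowest at -0.29.

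Hoxa9, best known as a regulator of haematopoietic progenitors and a leukaemia gene, had the largest mean rise. Its probe (chr6:52175595-52175654, mm9) read 246.6 in control and 285.7 in IWP-2 of replicate 1, and 207.9 and 248.9 in replicate 2. The IWP-2 pools were higher on both arrays and both lay above both control pools, with 248.9 as the lowest IWP-2 and 246.6 as the highest control reading. The mean log2 ratio was 0.24 (SE 0.0670, 95% interval 0.07 to 0.40, limma adjusted p = 0.186), so Hoxa9 did not pass. The second Hoxa9 probe had log2 ratios of -0.0070 and 0.19, smaller than the first on both arrays. Its pools overlapped, with 228.6 in control and 227.5 in IWP-2 of replicate 1, and 188.7 and 214.9 in replicate 2. Hoxa13, which patterns the hindgut, bladder outlet and digits, came next. It read 223.5 in control and 235.3 in IWP-2 of replicate 1, and 155.5 and 187.2 in replicate 2, a mean of 0.17 (SE 0.0765, limma adjusted p = 0.437). Its second probe gave log2 ratios of -0.02 and 0.19, so only replicate 2 was higher by both probes. The next largest mean, 0.09 (SE 0.0664, limma adjusted p = 0.772), was that of Hoxb4, a gene of cervical patterning and blood stem cells. Hoxb4 read 856 in control and 911 in IWP-2 of replicate 1, and 925 and 980.0 in replicate 2.

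Hoxd13, which acts with Hoxa13 in the digits and the terminal urogenital tract, had the lowest mean ratio. Its probe (chr2:74509248-74509307, mm9) read 140.5 in control and 110.0 in IWP-2 of replicate 1, and 97.1 and 82.7 in replicate 2. Each IWP-2 pool lay below the control pool on its own array, but the IWP-2 pool of replicate 1 lay above the control pool of replicate 2. The mean log2 ratio was -0.29 (SE 0.0705, 95% interval -0.46 to -0.12, limma adjusted p = 0.136). Hoxc6 had log2 ratios of -0.22 and -0.14 and a mean of -0.18 (SE 0.0682, limma adjusted p = 0.320). Hoxd10, which patterns the lumbar spinal cord and hindlimb, read 274.1 in control and 239.2 in IWP-2 of replicate 1, and 253.3 and 244.5 in replicate 2. Both of its IWP-2 pools lay below both control pools, with a mean of -0.12 (SE 0.0723, limma adjusted p = 0.629). The paralogs Hoxa13 and Hoxd13 thus had mean ratios of opposite sign, neither of which passed the test, and the difference between them was not tested. By its brightest probe, Hoxa9 alone of the 25 genes had both IWP-2 pools above both controls, as 14.0% of all genes did. Hoxd10 alone had both below, as 17.0% did.

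Over the 4 clusters no common direction was seen. Of the 25 genes, 7 were lower on both arrays (28%, against 29.1% of all genes tested), 5 were higher on both (20%, against 25.7%) and 13 pointed in opposite directions (52%, against 45.2%). None of the 13 exceeded 1.2-fold on both arrays. Genes higher on both were Hoxa9, Hoxa10, Hoxa13, Hoxb2 and Hoxb4. Genes lower on both were Hoxb5, Hoxc6, Hoxc9, Hoxd8, Hoxd10, Hoxd11 and Hoxd13. Of these 7, 6 lay in HOXC or HOXD, which held 3 and 7 of the 25 tested genes, and none passed the test. Hoxd11, of the kidney-forming paralog group, read 373.3 and 341.5 in replicate 1 and 326.5 and 305.7 in replicate 2, control first, a mean log2 ratio of -0.11 (SE 0.0667, limma adjusted p = 0.645). Its dimmer second probe had log2 ratios of -0.01 and 0.14, which goes against the first probe in replicate 2. The median mean log2 ratio was -0.0053 for HOXA, 0.0030 for HOXB, -0.09 for HOXC and -0.07 for HOXD. Second probes also existed for Hoxa3 and Hoxb3. That of Hoxa3 read between 16.8 and 23.6 and had log2 ratios of -0.34 and 0.49, opposite on the 2 arrays like the brighter probe at -0.17 and 0.16. That of Hoxb3 had ratios of 0.0004 and -0.0067, and 1 of the transcripts listed for it belongs to Hoxd3, so its signal cannot be assigned to Hoxb3 alone.

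The sequence upstream of the genes was examined for the core motif of the TCF/LEF factors, through which beta-catenin acts on WNT target genes. RefSeq promoters (GRCm38.p6) were matched by symbol for 22 of the 39 genes, 24 promoters in all, and the 250 bases before the start were searched on both strands for CTTTGA. The motif stood in 3 of the 24 HOX promoters (12.5%) and in 13.8% of all 32851 promoters of this length. The 3 promoters are shown because these genes are the members with such a match, with the motif in capitals, 5′ to 3′ on the strand of the gene. That of Hoxd8 lies at chr2:74704365-74704614 (plus strand) and holds it at 153 and 143 bases before the start, the downstream of 2 Hoxa10 promoters lies at chr6:52234940-52235189 (minus strand) with matches at 243 and 216 bases, and that of Hoxd12 lies at chr2:74674763-74675012 (plus strand) with a match at 34 bases.
Hoxd8: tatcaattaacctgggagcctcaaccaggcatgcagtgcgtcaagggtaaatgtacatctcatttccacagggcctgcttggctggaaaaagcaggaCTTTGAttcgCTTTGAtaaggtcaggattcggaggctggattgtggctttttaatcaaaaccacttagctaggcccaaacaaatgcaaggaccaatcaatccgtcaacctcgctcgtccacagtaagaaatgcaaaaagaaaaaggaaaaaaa
Hoxa10: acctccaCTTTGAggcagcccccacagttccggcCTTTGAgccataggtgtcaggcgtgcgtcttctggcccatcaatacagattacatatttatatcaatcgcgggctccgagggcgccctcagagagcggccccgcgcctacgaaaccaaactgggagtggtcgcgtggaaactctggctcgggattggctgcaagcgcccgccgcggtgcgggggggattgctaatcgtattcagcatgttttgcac
Hoxd12: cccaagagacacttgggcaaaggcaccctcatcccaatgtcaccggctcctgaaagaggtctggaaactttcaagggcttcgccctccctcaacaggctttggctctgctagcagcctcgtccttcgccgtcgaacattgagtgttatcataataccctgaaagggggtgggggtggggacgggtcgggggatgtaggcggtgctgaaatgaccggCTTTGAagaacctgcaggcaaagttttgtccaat
Hoxd8 had a mean log2 ratio of -0.02 (SE 0.0667, 95% interval -0.18 to 0.14, limma adjusted p = 0.990). Hoxa10, a gene of the reproductive tract and hindlimb, read 1095 in control and 1102 in IWP-2 of replicate 1, and 908 and 955 in replicate 2, a mean of 0.04 (SE 0.0676, 95% interval -0.12 to 0.20, limma adjusted p = 0.958). Hoxd12 was at the floor in all 4 channels. A match of 6 letters is a description of the sequence and not a bound site. The bipartite HOX-PBX motif TGATNNAT, which shares the letters TGA with the TCF/LEF core and can overlap it, stood in 4 of the 24 HOX promoters (16.7%), those of Hoxa2, Hoxb1, Hoxb8 and Hoxd11, and in 7.68% of all promoters. None of these 4 genes passed the test or, for Hoxa2 and Hoxb1, the signal filter.

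The cofactors, the cluster transcripts and the regulators of HOX genes were described from lists of symbols. No gene of these lists passed the test, where 1.25% of all genes tested did, so few calls could be looked for in lists of this size. Of 9 HOX cofactors (PBX, MEIS and PKNOX homeodomain proteins) 8 were tested, with a median log2 ratio of -0.05. The largest change was that of Pbx3. It read 2670 in control and 2046 in IWP-2 of replicate 1, and 1899 and 1760 in replicate 2, a mean log2 ratio of -0.25 (SE 0.0855, limma adjusted p = 0.276). Pbx3 was thus lower on both arrays. Meis1 and Meis2 were opposite on the arrays, with log2 ratios of -0.09 and 0.28 for Meis1 and of -0.32 and 0.21 for Meis2. Pbx4 had a signal of 24.8 or less.

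Of 17 listed transcripts and neighbours of the clusters 9 had a probe, 6 were above background in all 4 channels and 2 were tested. Hoxa11os, the antisense transcript of Hoxa11, read 1078 and 1050 in replicate 1 and 1051 and 1039 in replicate 2, control first, a mean log2 ratio of -0.03 (limma adjusted p = 0.983). Hoxb5os had a mean of 0.09 (limma adjusted p = 0.798). Haglr and Hoxd3os1, transcripts of the HOXD cluster, read between 71.1 and 101 and had log2 ratios of -0.16 and -0.23, and of -0.15 and -0.15, below the signal limit. Hottip, Hoxaas3 and Evx1 lay at the floor. The caudal genes Cdx1, Cdx2 and Cdx4, which relay WNT signals to HOX clusters in the early embryo, lay at the floor in all 4 channels. In the same list Rarb, a retinoic acid receptor, had a mean log2 ratio of -0.20 (SE 0.0728, limma adjusted p = 0.319). Cyp26b1, which degrades retinoic acid, had ratios of -0.14 and 0.32 (limma adjusted p = 0.916 for the mean).

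Of 22 Trithorax and Polycomb genes 20 were tested, of which 9 were lower on both arrays and 1 higher on both, where 29.1% of all genes tested were lower and 25.7% higher on both, with a median log2 ratio of -0.05. The largest change was that of Cbx2, a Polycomb reader of histone methylation, at -0.22 and -0.17 (mean -0.19, SE 0.0670, limma adjusted p = 0.277). Ezh2, the histone methyltransferase of Polycomb, had a mean of -0.14 (SE 0.0682, limma adjusted p = 0.481). Gmnn, a replication licensing inhibitor that also binds HOX proteins, read 729 in control and 558 in IWP-2 of replicate 1, and 759 and 660.1 in replicate 2. It was lower on both arrays, with a mean log2 ratio of -0.29 (SE 0.0755, limma adjusted p = 0.153). Hmgb1, a chromatin protein that can promote DNA binding by HOX proteins, had ratios of 0.11 and -0.11 (limma adjusted p = 0.998 for the mean).

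Tested HOXA and HOXB genes differed between the arrays in opposite directions. The same probe was compared between the 2 arrays, female pools minus male pools, after subtraction of the median over all genes tested. In the control pools all 7 tested HOXA genes were higher in replicate 1, by 0.16 to 0.52 log2 units (median 0.25), and all 8 tested HOXB genes were lower, with differences of -0.11 to -0.30 (median -0.20). The middle part of all genes tested, between the quartiles, ran from -0.10 to 0.10. Hoxa13, at 0.52, and Hoxd13, at 0.53, had the largest differences and Hoxb6, at -0.30, the lowest. Tested HOXC genes lay from -0.15 to 0.08 and HOXD genes from -0.10 to 0.53. In the IWP-2 pools, in which the dyes were the other way round, 5 of 7 HOXA genes were higher and 6 of 8 HOXB genes lower in replicate 1, with medians of 0.08 and -0.11. Hoxa13 and Hoxd13 again differed most, by 0.33 and 0.41. Both pools of an array share its hybridization, and there was 1 array per sex and dye orientation. These differences were therefore not tested, and sex, dye, pool and array cannot be told apart.

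**Figure D4:**
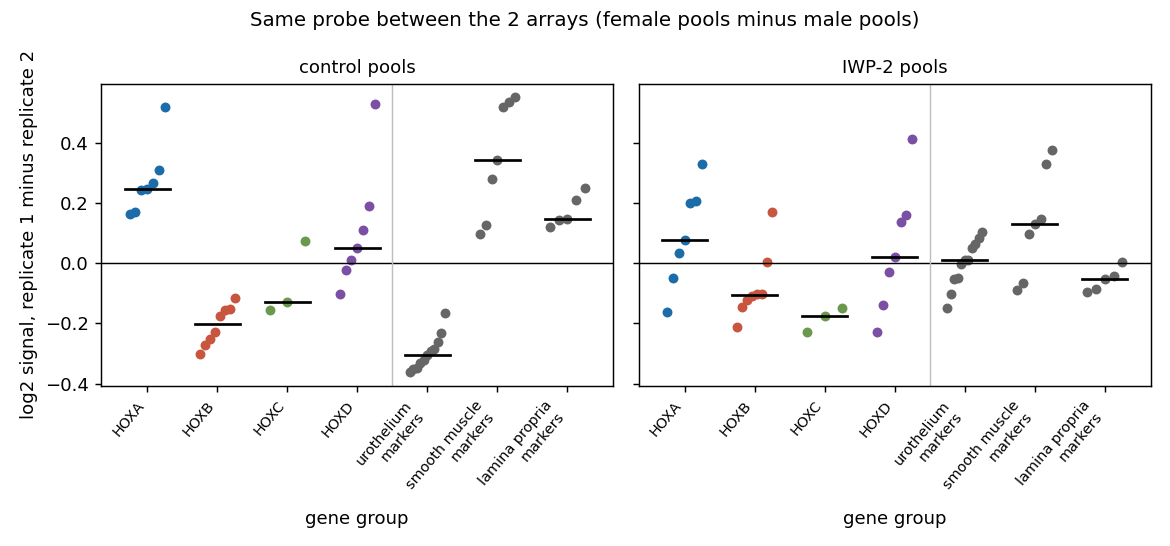
Log2 signal of replicate 1 (female pools) minus replicate 2 (male pools) for the same probe, in control pools (left) and IWP-2 pools (right); points are tested genes of the 4 HOX clusters and of 3 marker lists, and bars are medians. In control all HOXA points lie above 0 and all HOXB points below it. Smooth muscle and lamina propria markers also lie above 0 there, and urothelial markers below it. In the IWP-2 pools the medians of HOXA and HOXB are 0.08 and -0.11.

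Markers of the tissue layers also differed between the arrays in the control pools, and less so in the IWP-2 pools. In control all 11 urothelial markers were lower in replicate 1, with differences of -0.17 to -0.36 log2 units, and their summed signal was 121022 in replicate 1 and 148762 in replicate 2. All 7 smooth muscle markers were higher in replicate 1, by 0.10 to 0.55, with sums of 86469 and 74457. All 5 lamina propria or fibroblast markers were higher by 0.12 to 0.25. The same held for all 4 endothelial markers (median 0.30), all 4 nerve markers (median 0.24) and all 8 tested HOX cofactors (median 0.21). Of the tested macrophage markers 1 was higher and 2 were lower. A higher control signal in replicate 1 was thus not particular to smooth muscle and HOXA. In the IWP-2 pools 6 of 11 urothelial markers were higher and 5 lower in replicate 1 (median 0.01, sums 158448 and 158051). Of the smooth muscle markers 5 of 7 were higher there (median 0.13, sums 85913 and 85710), and of the lamina propria or fibroblast markers 4 of 5 were lower (median -0.05). No marker of these lists was at the floor. With IWP-2 9 of the 11 urothelial markers were higher on both arrays, beside 25.7% of all genes, and none passed the test. Of the 5 lamina propria or fibroblast markers 4 were lower on both, beside 29.1% of all genes, and 1 passed the test, the lamina propria marker Aldh1a2 with a mean log2 ratio of -0.63 (SE 0.0836, limma adjusted p = 0.0280). The part of tissue composition in the HOX differences was not tested. The ratios within each array use the same control readings as the comparison between arrays, so the 2 are not independent. The dye orientation changed between the arrays as well. The ratios of opposite direction are given only for description, and what lies behind them was not tested. Hoxa3, Hoxa5, Hoxa7 and Hoxa11 were lower with IWP-2 in replicate 1 and higher in replicate 2, and so were Hoxc4, Hoxd3 and Hoxd4. The reverse, higher in replicate 1 and lower in replicate 2, held for Hoxb6, Hoxb7, Hoxb8, Hoxb9 and Hoxd9, while Hoxb3 was lower in replicate 1 and higher in replicate 2. Hoxb9, with 1054 and 1127 in replicate 1 and 1233 and 1003 in replicate 2, had the widest gap between the arrays, from 0.10 to -0.30 (mean -0.10, SE 0.102, limma adjusted p = 0.863). Over the 25 genes the ratios had an SD of 0.14 on each array, beside 0.22 and 0.17 for all genes tested.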

How the data were processed

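Total RNA of ureter pools was amplified, labelled and hybridized to Agilent 2-colour arrays. The submitters' processing notes name Feature Extraction 10.7.3.1, and the file headers give 12.2.0.7 and the build mm9. Per the file headers, the deposited processed signal intensity had a fitted spatial background surface subtracted and was dye-normalized; mean and local background intensities were used in an alternative, and the deposited log10 ratio (red over green) served to check the direction. The series value table holds the authors' signed fold score (median 1 on each array). On the log2 scale it correlated with the normalized ratios of IWP-2 over control used here (r = 0.94 and 0.923). Of its values at or beyond 1.5-fold, 94.3% and 91.8% had the same sign as these ratios. Its exact processing is not given in the sources used here.

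Outlier spots (3.32% and 3.22%) and 17263 control spots were left out, and no spot was saturated. Log ratios were loess-normalized within arrays (span 0.3) in limma 3.58.1 under R 4.3.3, spots of a probe were averaged, signals were floored at 15, and the brightest probe stood for a gene. Genes with mean signal above 100 in control or IWP-2 (14336) were tested with limma on the log2 ratios of both arrays against 0, with Benjamini-Hochberg adjustment over all of them (threshold 0.05). Each array was thus its own pair of pools. The ratio filter was control above 100 and 1.5-fold on both arrays. Probe coordinates are those of the files.

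Members and lists were chosen with earlier results of these data known. Full values are given for HOX genes past a test or filter, beyond 1.2-fold alike or oppositely on both arrays, the 3 highest and 3 lowest means, and the brightest probe of each cluster; other genes named were chosen after their values were seen, except the 2 largest changes of each list. The comparison between arrays and the promoter search were added after seeing the data. Values of a few genes, one of them a member, are not reported here and the member is not drawn.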

Additional observations from a re-analysis of the deposited data

How the results depend on the processing

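No setting produced a HOX gene with a limma adjusted p under 0.05: the count was 0 in all of them, with 0 to 7 genes at an unadjusted p under 0.05, and the lowest adjusted p among HOX genes ranged from 0.125 to 0.942. The count past the 1.5-fold filter stayed at 0, also at 1.2-fold and 2-fold and in the authors' value table. The accessory lists had 0 calls throughout, where 1.25% of all genes tested were called in the main setting. Without the replicate block, with the 4 channels as separate samples, 0 HOX genes and 8 of all genes were called, and 0 HOX genes had an unadjusted p under 0.05. The number of all genes called was 427 with normexp background and 67 with the mean of all probes. It was 0 without a signal filter or with the scanner's background flag as the filter (2028 and 2018 genes at an unadjusted limma p under 0.05). A count of 0 among HOX genes carries nothing under these last 2. Calls were rare in the other settings too (179 of 14336 genes, 1.25%, in the main one), so a count of 0 among 25 genes says little there. The median HOX log2 ratio moved from -0.0425 to -0.0016 with processed signals centred on the median, and lay between -0.0503 and 0.0035 when either array was left out. The number of HOX genes lower was 12 to 15 on a single array, against 7 on both. With a single array no test was possible. HOX genes with a signal above 100 in all 4 channels numbered 24, against 34 above background. Under a signal limit of 50, Hoxc10 entered the test with an adjusted p of 0.197. All 25 differences between control pools of the 2 arrays kept their sign under Aquantile scaling, added after seeing the data.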
